A study of Homo sapiens with 22 samples.

Results

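The AMPK subunit genes are described here across RNA-seq of RPTEC, an hTERT-immortalized line of human renal proximal tubule epithelial cells. The members are PRKAA1, PRKAA2, PRKAB1, PRKAB2, PRKAG1 and PRKAG2, and all 6 were found by symbol among the 36859 genes of the table. They were chosen by the normalized counts of PRKAA2, which had been seen to rise with TGF-β, and by their place in the same complex, so every value of a subunit gene in WT with TGF-β against WT is a description with no test, as is every value of PRKAA2 in any comparison. Other genes were tested in that comparison, as background only.

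AMPK is a kinase that senses a shortage of energy in the cell. It is a complex of a catalytic α subunit, a β subunit that holds the complex together and binds glycogen, and a γ subunit that binds AMP, ADP and ATP. When active it slows lipid and protein synthesis and favours glucose use, fatty acid oxidation and autophagy, and in the renal tubule it is known for its part in transport and in the response to injury. The α2 form is best known from skeletal and heart muscle, and the third γ gene, PRKAG3, is expressed mainly in skeletal muscle.

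The 22 libraries fall into 11 groups of 2. WT, 2 SETD2 knockout clones (KO1 and KO2, each grown from a single cell after Cas9 was directed to exon 3) and the group labelled KO2_Rescue were kept in 2% serum. WT cells were also treated in 2% serum with 10 ng/ml TGF-β for 72 h, whereas the labels of untreated WT give a time of 0 h. Rescue1 and Rescue2, which are clones of KO cells that carry lentiviral full-length SETD2 under blasticidin selection, were kept in regular medium with 10% serum. So were WT cells transduced with eGFP as the control, or with SOX2, OCT2 (POU2F2) or PRRX1, which were selected in bulk with puromycin. All cells are under G418 for hTERT. No source used here says that the 2 libraries of a group came from separate cultures, so p-values measure only the spread between these libraries, which may be technical.

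Values are normalized counts, and a gene passed where the adjusted p of limma's test over 14585 genes was under 0.05. Library totals were 11674491 to 16758645 normalized counts, or approximately 7700000 to 19000000 reads. SETD2 was at 1852 and 2061 in WT, 1046 to 1130 in both KO clones and 9764 to 10445 in Rescue1 and Rescue2. In the libraries labelled KO2_Rescue it was at 834 and 820, below KO2, so SETD2 RNA does not bear out that label. Other genes went both ways. PRRX1 was at 0 and 0.66 there against 34.8 and 28.4 in KO2. MARK1, at 1.18 and 0 in WT, was at 275 and 186 there against 193 and 152 in KO2. Of all genes, 10.3% passed between these libraries and KO2, and what the libraries carry was not tested. POU2F2 was at 1251 and 1121 in WT with OCT2 against 279 and 357 with eGFP, a difference that did not pass. PRRX1 was at 395 and 404 in WT with PRRX1 and was listed at 0 with eGFP, while SOX2 was not analysed here. Of the tubule markers, 9 of 17 were above 0 in every library, among them PAX8 (1535 to 6561), KRT8 (3952 to 25190) and the proximal GGT1 (225 to 1091) and CUBN (13.9 to 333). Among the other 8, SLC17A3 reached 558 and AQP1 448, LRP2 reached 2.29 and SLC22A6 was listed at 0 in 22 libraries. The 2 WT libraries differed from each other in COL1A1 (11919 and 532) and TGFBI (12164 and 896). Some genes were all or none within a group. Of 10460 genes that reached 100 normalized counts in at least 1 library, 246 (2.35%) were listed at 0 in 1 library of a group and at 100 or more in the other, 44 of them in KO2. Genes that every cell uses were also listed at 0 in some libraries (HPRT1 in 6 and POLR2A in 1), so a 0 is reported here only as listed at 0.

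Of the catalytic genes, PRKAA1 (α1) was above 0 in every library, and PRKAA2 (α2) was above 0 in 3 of 22 and listed at 0 in the others. PRKAA2 was at 363 and 193 normalized counts in the 2 libraries of WT with TGF-β. It was at 262 in 1 library of KO2 and listed at 0 in the other, and it was listed at 0 in the remaining 18 libraries, which include both of WT, KO1, KO2_Rescue and every library in 10% serum. In WT with TGF-β both libraries were therefore high, and KO2 overlapped the groups at 0. No test of PRKAA2 is read in any comparison. It reached 10 normalized counts in 2 libraries, as the test required, only through WT with TGF-β, whose values chose it. Its differences between KO1 and KO2, between KO2_Rescue and KO2 and between the rescue and KO clones rest on the 1 KO2 library above 0.

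The PRKAA2 gene spans bases 56645314 to 56715335 of chromosome 1, plus strand, in GRCh38, with 9 exons in its canonical transcript of 9355 bases. The 250 bases before its start are shown because PRKAA2 is the member that was above 0 in so few libraries. They are RefSeq sequence of GRCh38.p14 at chr1:56645064-56645313, plus strand, and capitals mark each GC box CCGCCC.

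PRKAA2: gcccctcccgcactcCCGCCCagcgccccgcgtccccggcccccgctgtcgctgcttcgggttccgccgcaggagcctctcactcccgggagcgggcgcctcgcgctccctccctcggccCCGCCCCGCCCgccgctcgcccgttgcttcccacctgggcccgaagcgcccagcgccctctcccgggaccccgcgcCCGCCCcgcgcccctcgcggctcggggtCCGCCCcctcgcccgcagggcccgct

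The window held 5 such boxes on the strand shown, of which a pair overlaps by 1 base, and 42.5% of all 35116 RefSeq start windows of this length hold CCGCCC or its reverse complement GGCGGG. It held 39 CpG, where the median over all windows was 11 and 2.65% had as many or more. One E-box CACCTG was found (17.5% of windows hold it or CAGGTG), and neither a SMAD box (CAGAC or GTCTG, in 38.0% of windows) nor a TATA box (TATAAA or TTTATA, in 10.7%). The SMAD box letters were found in the windows of PRKAA1 and PRKAG1 and in 1 of the 5 windows of PRKAG2. The window of PRKAA2 also overlaps PLPP3, a gene on the minus strand whose annotated start is at base 56645301, so its letters are not those of PRKAA2 alone. These matches describe the letters and nothing more.

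**Figure D1:**
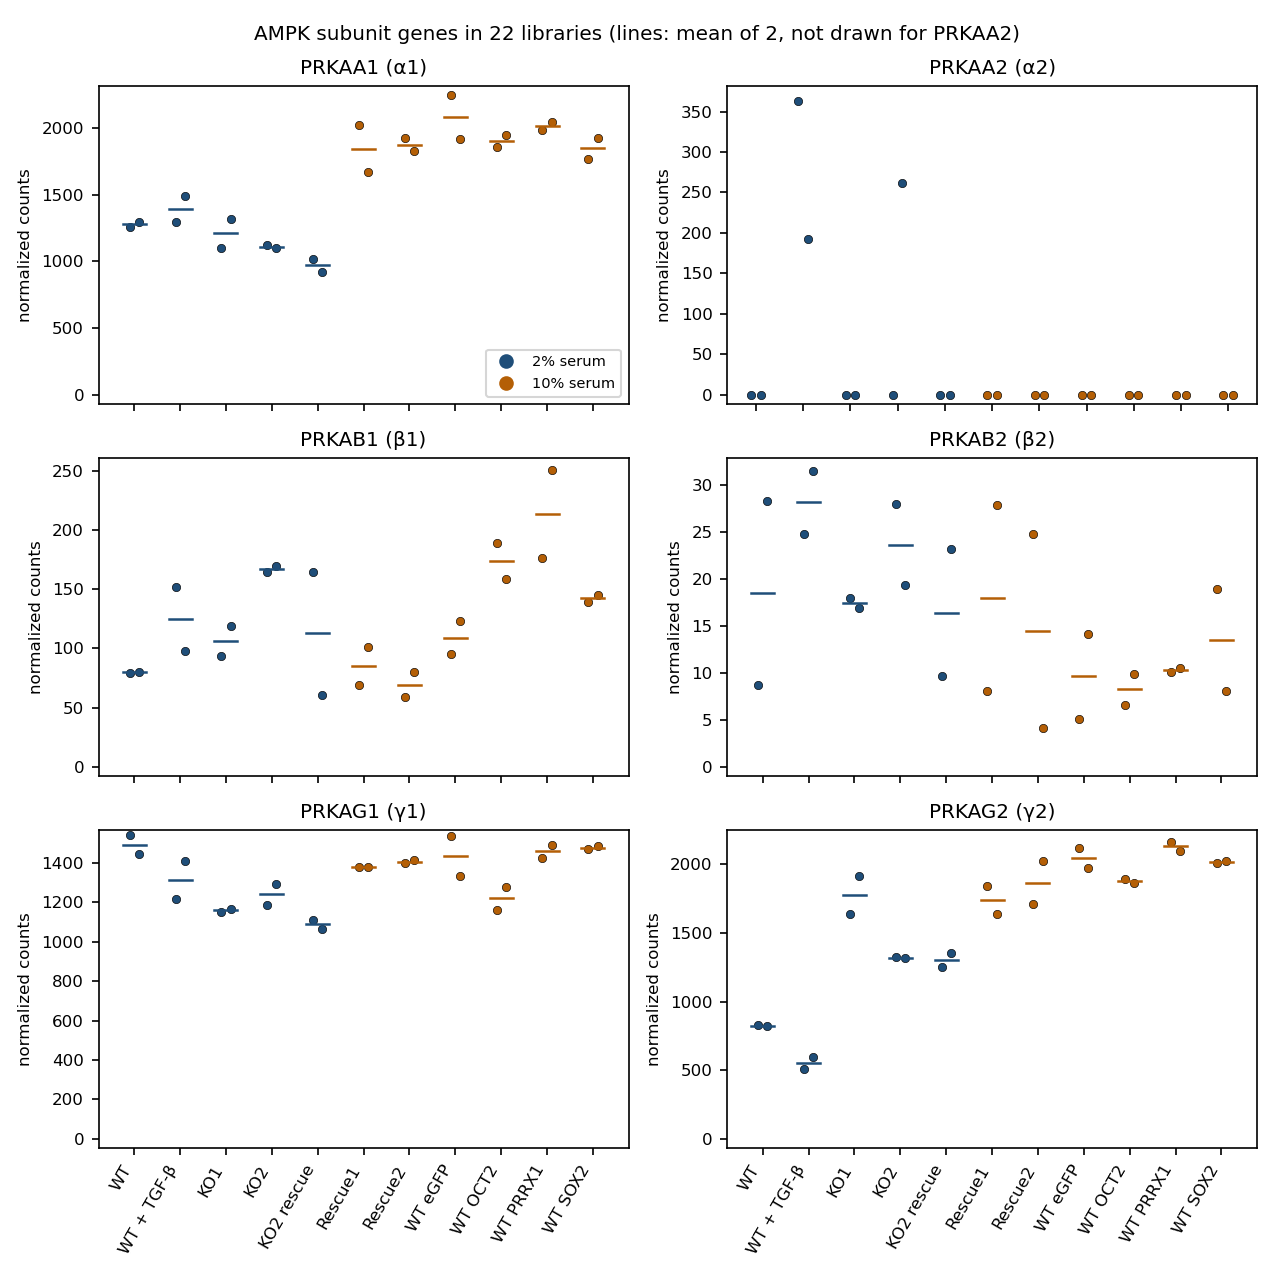
Normalized counts (y axis) of the 6 subunit genes in the 11 groups (x axis), with 1 point per library, blue in 2% and orange in 10% serum, and a line at the mean of 2 except for PRKAA2. PRKAA2 is above 0 in 3 libraries, and PRKAA1 is at 1673 or more in all orange points and at 1493 or less in all blue ones.

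The genes around PRKAA2 had another pattern. The 3 nearest tested genes on each side were PLPP3, ENSG00000284686 and USP24 before it, and FYB2, C8A and DAB1 after it. PLPP3, a lipid phosphatase gene on the minus strand, has its annotated start 13 bases from that of PRKAA2. DAB1, an adaptor of reelin signalling, was at 697 and 651 normalized counts in KO1, 317 and 308 in KO2, 3.82 and 17.1 in KO2_Rescue and at most 3.10 in the other libraries. C8A, a complement gene, was at 55.6 and 89.8 in KO1, 30.6 and 23.4 in KO2 and at most 1.80 elsewhere. Both KO clones thus stood above all other groups in DAB1 and C8A, and PRKAA2 was listed at 0 in 3 of those 4 libraries. FYB2, C8A, DAB1 and ENSG00000284686 were higher in KO1 and in KO2 than in WT (limma adjusted p = 2.53e-07 to 0.0168), and the first 3 of them were lower in KO2_Rescue than in KO2 (adjusted p = 0.000264 to 0.0181). None of the 6 neighbours passed between WT with TGF-β and WT (lowest limma adjusted p = 0.38). DAB1, C8A, FYB2 and PLPP3 were listed at 0 in both libraries or at most at 1.06 in WT with TGF-β, where PRKAA2 was highest.

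**Figure D2:**
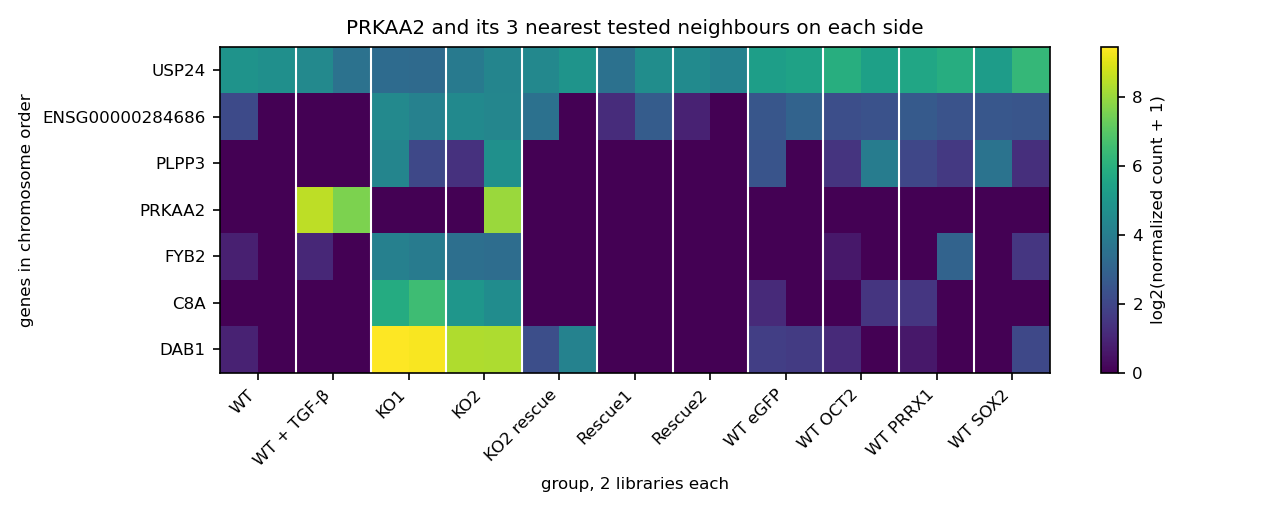
Colour gives log2(normalized count + 1) for PRKAA2 and 6 neighbouring genes in chromosome order (rows) in the 22 libraries (columns, 2 per group). PRKAA2 is bright in WT with TGF-β and in 1 KO2 library, and DAB1 in all 4 KO libraries.

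The genes whose pattern was most like that of PRKAA2 were ranked by Pearson r of log2(normalized count + 1) over the 22 libraries, which share their groups, and r is given with no p. They were LDLRAD4 (r = 0.826), ENSG00000231179 (0.797), SMURF1 (0.793), CLEC18C (0.759) and SLC38A3 (0.757). As PRKAA2 was above 0 in only 3 libraries, r is set largely by those of WT with TGF-β, whose values chose it. Genes that are higher with TGF-β therefore rank high by construction, and the ranking is a description only. SMURF1, a ubiquitin ligase of TGF-β receptors and SMADs, was at 2252 and 2174 normalized counts with TGF-β and at 1250 to 1559 in the other libraries. LDLRAD4, an inhibitor of SMAD signalling, was at 31.5 and 21.7 with TGF-β and at 0 to 16.5 elsewhere. No tested gene was above 0 in exactly the 3 libraries of PRKAA2. As a check of the treatment alone, of the 9 direct TGF-β target genes measured, 6 were higher and 0 lower in WT with TGF-β than in WT, where 17.7% of all tested genes passed.

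PRKAA1, the α1 gene on chromosome 5, divided the libraries in 2% serum from those in 10% serum, which are all of transduced and selected lines. In the 10 libraries in 2% serum it ran from 919 through a median of 1192 to 1493 normalized counts, and in the 12 in 10% serum from 1673 through 1926 to 2251. The ranges did not overlap, which was so for 1 of the 6 subunit genes and for 2.58% of all tested genes. WT was at 1259 and 1296 and WT with eGFP at 2251 and 1918, a log2 change of 0.70 ± 0.11 (SE, limma adjusted p = 0.000328). Serum, transduction and selection differ together in that comparison and, apart from the doubtful KO2_Rescue label, over the whole split, and cannot be told apart. Within 2% serum, KO1 (1101 and 1322) and KO2 (1124 and 1098) did not pass against WT, with 95% intervals of the log2 change from -0.33 to 0.16 and from -0.45 to 0.04. With the same total for every library both clones were lower (-0.49 and -0.43, limma adjusted p = 0.00245 and 0.00919), while that scaling moved the median of all genes by -0.40 and -0.21. The lowest group was the one labelled KO2_Rescue (1020 and 919), whose libraries lay below those of every other group. Rescue1 (2022 and 1673) and Rescue2 (1923 and 1827) were higher than the KO clones by 0.68 ± 0.08 on the log2 scale (limma adjusted p = 6.35e-06, and 1.08 on that scale with the same total for every library). Serum (10% against 2%), transduction and selection differ there too. Against WT with eGFP, in the same serum, the rescue clones gave -0.16 ± 0.10 (adjusted p = 0.251).

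The β subunit genes had low counts. PRKAB1 (β1, chromosome 12) ran from 58.7 to 251 normalized counts, and its libraries of 1 group differed by up to 2.73 times. It was at 79.3 and 80.2 in WT, 94.03 and 119 in KO1 and 165 and 170 in KO2. The 2 KO2 libraries lay above the WT ones, with a log2 difference of 1.06 ± 0.39 that did not pass (limma adjusted p = 0.056, and 0.0458 in a fit of the compared libraries alone). The libraries labelled KO2_Rescue, at 165 and 60.5, spanned both, and the difference from KO2, which did not pass, did so without KO2_Rescue replicate 1 (log2 difference -1.45, limma adjusted p = 0.0305). PRKAB1 was lower in Rescue1 (68.8 and 101) and Rescue2 (58.7 and 80.1) than in the KO clones, with a log2 change of -0.81 ± 0.28 (limma adjusted p = 0.0271). This call was lost with the same total for every library (log2 change -0.41, adjusted p = 0.237) and without any 1 of KO1 replicate 2, KO2 replicate 1 or 2, Rescue1 replicate 1 or Rescue2 replicate 1 (adjusted p = 0.0582 to 0.0993). WT with PRRX1 held the highest level (176 and 251, against 94.96 and 123 with eGFP), a log2 difference of 0.96 ± 0.39 with an unadjusted p of 0.0281 and an adjusted p of 1 in limma's test. PRKAB2 (β2, chromosome 1) ran from 4.16 to 31.5 normalized counts. Its libraries of 1 group differed by up to 5.97 times, every pair of groups next to each other in the order of levels overlapped, and it passed in none of the 10 comparisons tested, in which its standard errors were 0.60 to 0.85 on the log2 scale.

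PRKAG2 (γ2, chromosome 7 from 151556124 to 151877214, minus strand) had the largest log2 change among the 5 subunit genes with fitted changes, in WT with eGFP against WT (1.31). Its change was also the largest in KO1 against WT, while in KO2 that of PRKAB1 was larger (1.06, not passed). Of the 5 subunit genes tested, 2 passed in KO1 against WT, where 39.8% of all genes did, and 2 in KO2 against WT, where 28.9% did. They were PRKAG2, which was higher, and PRKAG1, which was lower, in both clones. PRKAG2 was at 828 and 821 normalized counts in WT, 1639 and 1917 in KO1 and 1326 and 1316 in KO2. The 3 groups did not overlap. The log2 change was 1.10 ± 0.10 in KO1 (limma adjusted p = 6.52e-07) and 0.68 ± 0.10 in KO2 (adjusted p = 0.000124), and with the same total for every library they were 0.69 and 0.45. As the KO clones are compared with the same WT libraries, the 2 changes are not independent. In bulk RNA of these cultures of 1 line, a change in RNA per cell and one in the mix of cell states cannot be told apart. The paper reports lower epithelial and higher mesenchymal markers after SETD2 loss. Over the same groups the sum of 10 fibroblast and muscle markers was 1155 and 12765 in WT, 224236 to 237397 in KO1 and 101170 to 104834 in KO2, where DCN made up most of it, and of the 9 tested 5 were higher and 1 lower in KO1 and 5 higher and 0 lower in KO2. The sum of 17 tubule and epithelial markers was 23831 and 26287 in WT, 13809 and 13820 in KO1 and 18337 and 19643 in KO2. KRT8, a large part of it, was at 15741 and 16325 in WT, 4558 and 3952 in KO1 and 10534 and 9784 in KO2. Of 13 tested 3 were higher and 5 lower in KO1 and 3 higher and 4 lower in KO2. EPCAM was lower in both (log2 changes -3.51 and -1.74, limma adjusted p = 5.72e-12 and 2.77e-08). PAX8 (1.13 and 0.78), CUBN (3.30 and 2.83) and ANPEP (2.77 and 2.36) were the higher ones in both. The sum of 10 immune and endothelial markers was 146 and 152 in WT, 371 and 497 in KO1 and 300.1 and 353 in KO2, and of 6 tested 2 were higher in KO1 and 1 in KO2, among them KDR in both (log2 changes 6.42 and 6.68, limma adjusted p = 1.36e-05 and 1.46e-05). Of the fibroblast, muscle, immune and endothelial markers, CD3E was listed at 0 throughout and DES was at most 10.2, while THY1 reached 2936, LUM 768, CD68 364 and PDGFRA 231. Their part in the PRKAG2 result was not tested.

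KO1 exceeded KO2 in PRKAG2 by 0.42 ± 0.10 on the log2 scale (limma adjusted p = 0.0113). With PRKAA2 left out, it was the 1 subunit gene that passed between the clones, where 16.0% of all genes did. This call was lost in a fit of the compared libraries alone (adjusted p = 0.144), with the same total for every library (log2 difference 0.24, adjusted p = 0.119) and without KO1 replicate 2 (0.31, adjusted p = 0.107), KO2 replicate 1 (0.43, adjusted p = 0.0517) or KO2 replicate 2 (0.42, adjusted p = 0.0679).

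With TGF-β, PRKAG2 was at 509 and 598, below both WT libraries, a log2 difference of -0.58 given with no test. The other members differed by 0.12 (PRKAA1), 0.60 (PRKAB1), 0.78 (PRKAB2) and -0.19 (PRKAG1) on that scale. The KO clones thus lay above WT in PRKAG2 and the TGF-β libraries below it.

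The libraries labelled KO2_Rescue were at 1251 and 1355 in PRKAG2, overlapping KO2 and above WT. With PRKAA2 left out, none of the subunit genes passed between KO2_Rescue and KO2 in limma's test, where 10.3% of all genes did, and none had an unadjusted p under 0.05. For PRKAG2 the 95% interval of that log2 difference was -0.24 to 0.20. Rescue1 (1845 and 1635) and Rescue2 (1715 and 2021) overlapped KO1 and lay above KO2. Of the subunit genes other than PRKAA2, 4 passed between the rescue and KO clones, where 45.7% of all genes did, and they were PRKAA1, PRKAG1 and PRKAG2, which were higher, and PRKAB1, which was lower. PRKAG2 changed by 0.23 ± 0.07 on the log2 scale (limma adjusted p = 0.0169), a call that was lost without KO1 replicate 1, Rescue1 replicate 1 or Rescue2 replicate 2 (adjusted p = 0.0693, 0.0749 and 0.0889) and in a fit of the compared libraries alone (0.0676), and the log2 change was 0.63 with the same total for every library. Serum, transduction and selection differ in that comparison too. Against WT with eGFP in the same serum, 0 of the subunit genes other than PRKAA2 passed in limma's test and 0 had an unadjusted p under 0.05, where 29.5% of all genes passed. PRKAG2 then differed by -0.18 on the log2 scale, with a 95% interval from -0.37 to 0.01.

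WT cells in 10% serum with eGFP had PRKAG2 at 2116 and 1971, above both untransduced WT libraries in 2% serum, with a log2 change of 1.31 ± 0.10 (limma adjusted p = 3.57e-07). PRKAG2 and PRKAA1 were the 2 of 5 subunit genes that passed in that comparison, where 26.6% of all genes did. WT and WT with TGF-β were therefore the lowest groups for PRKAG2, and the 18 other libraries, SETD2 knockout or not, ran from 1251 to 2166.

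PRKAG1 (γ1, chromosome 12), the most abundant subunit per kilobase, moved least. Over the 22 libraries it ran from 1065 to 1542 normalized counts, a range of 1.45-fold. WT was at 1542 and 1442, KO1 at 1151 and 1167 and KO2 at 1188 and 1292, so both clones lay below WT. The log2 change was -0.36 ± 0.09 in KO1 (limma adjusted p = 0.00443), and for KO2 it was -0.27 ± 0.09 (adjusted p = 0.0352). Both calls were lost in a fit of the compared libraries alone (adjusted p = 0.112 and 0.149), and that in KO2 without WT replicate 1 (0.168) or KO2 replicate 1 (0.217). The rescue clones, at 1379 to 1413, were above the KO clones by 0.22 ± 0.06 on the log2 scale (limma adjusted p = 0.0114, and 0.051 without KO2 replicate 1). With the same total for every library the log2 changes of PRKAG1 were larger, at -0.77 in KO1, -0.49 in KO2 and 0.61 between rescue and KO. PRKAG3 (γ3) was listed at 0 in 21 libraries and at 1.03 in 1 of KO2_Rescue.

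**Figure D3:**
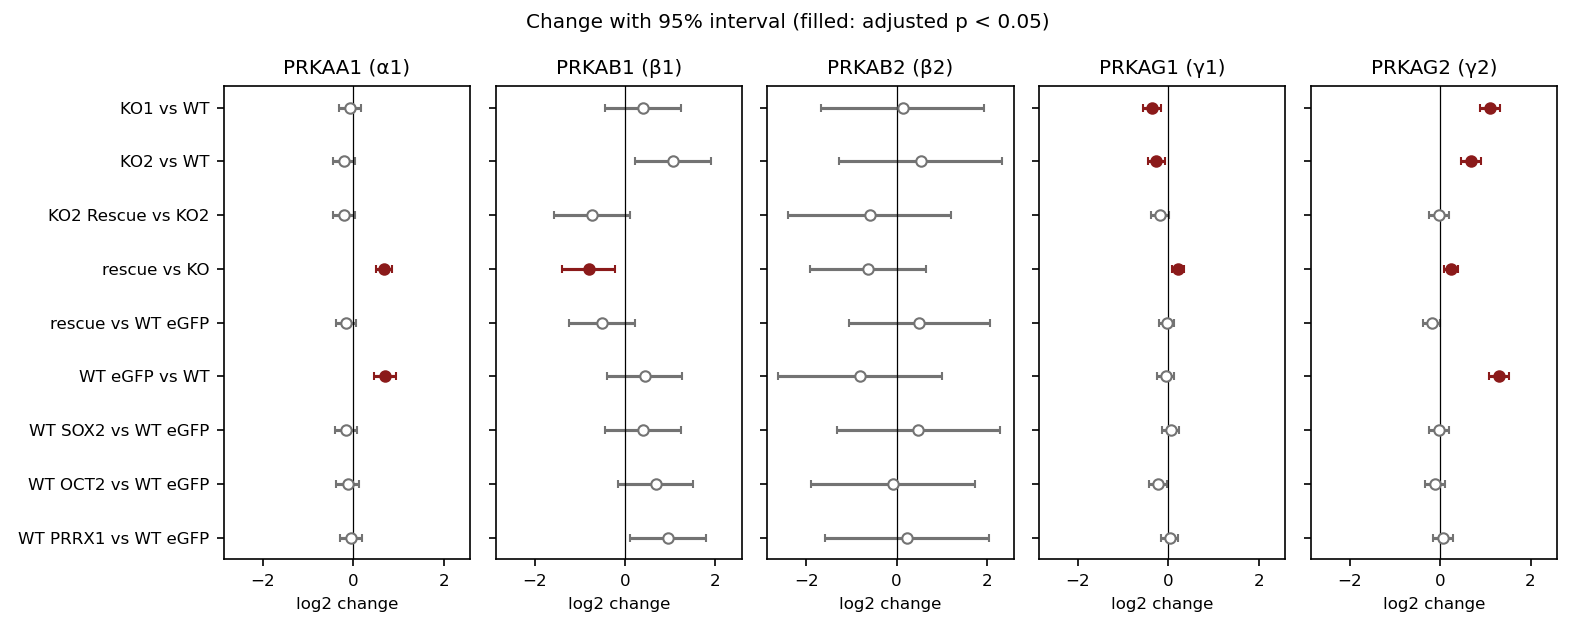
Fitted log2 change (x axis) with its 95% interval for the 5 subunit genes with fitted changes (panels) in 9 comparisons (rows), filled where the limma adjusted p was under 0.05. PRKAG2 is right of 0 in both KO clones and in WT with eGFP, PRKAG1 is left of 0 in both KO clones, and the intervals of PRKAB2 all include 0.

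The ectopic factors gave no call in the family, but the test also missed a transduced gene. POU2F2 itself did not pass with OCT2 against eGFP (limma adjusted p = 0.42), while PRRX1 passed with PRRX1. A missing call with these factors therefore does not show that a gene was unchanged. None of the subunit genes, with PRKAA2 left out, passed with SOX2, OCT2 or PRRX1 against eGFP in limma's test, where 0.0206%, 0.0411% and 0.0480% of all genes passed. At an unadjusted p under 0.05 the counts were 0, 1 (PRKAG1 with OCT2, log2 difference -0.23, 1163 and 1276 normalized counts against 1534 and 1333) and 1 (PRKAB1 with PRRX1). For PRKAG2 the 95% intervals of the log2 difference were -0.24 to 0.20 with SOX2, -0.34 to 0.10 with OCT2 and -0.16 to 0.28 with PRRX1. PRKAA2 was listed at 0 in all 8 of these libraries.

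Levels of different genes can be compared only per length, so normalized counts were divided by the length in kilobases of each canonical transcript. Medians over the 22 libraries were 832 per kilobase for PRKAG1, 543 for PRKAG2, 328 for PRKAA1, 54.6 for PRKAB1 and 2.91 for PRKAB2, and PRKAA2 reached at most 38.8. In every library α1 exceeded α2, β1 exceeded β2 and γ1 exceeded γ2. The γ2 share of γ1 and γ2 together was 21.8% ± 0.70 (SD, n = 2) in WT and 17.6% ± 0.14 with TGF-β. It was 43.6% ± 2.5 in KO1, 35.0% ± 1.5 in KO2 and 37.7% ± 2.0 in KO2_Rescue. In 10% serum it was 38.9% ± 2.0 in Rescue1, 40.1% ± 2.6 in Rescue2, 41.9% ± 1.2 with eGFP, 43.8% ± 1.9 with OCT2, 42.5% ± 1.4 with PRRX1 and 40.8% ± 0.08 with SOX2. With the median length of protein-coding transcripts in place of the canonical one these shares were lower throughout (13.2% in WT, 29.6% in KO1 and 22.7% in KO2). The β2 share of β1 and β2 ran from 1.43% to 15.0% and overlapped between WT (4.35% and 12.8%) and KO2_Rescue (2.38% and 13.7%). The α2 share was 13.6% and 6.76% with TGF-β and 11.8% in the 1 KO2 library.

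**Figure D4:**
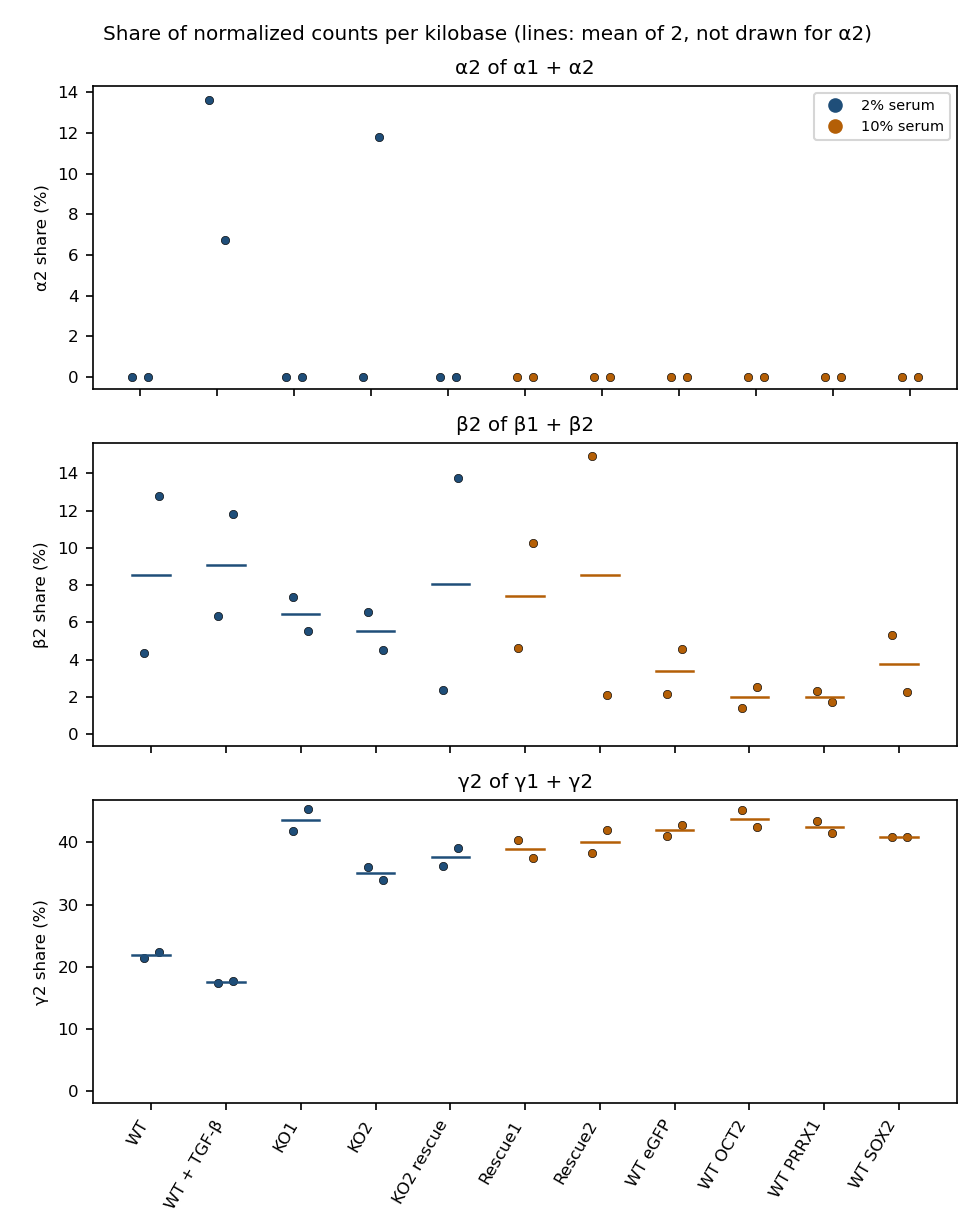
Share in percent (y axis) of the α2, β2 and γ2 gene in its pair, from normalized counts per kilobase, in 11 groups (x axis), with 1 point per library and a line at the mean of 2 except for α2. The γ2 share is 17.5% to 22.3% in the libraries of WT and WT with TGF-β and 34.0% to 45.4% in all others.

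Of the genes that act on AMPK, 15 of the 17 listed were tested, among them the kinase STK11 and the calcium-dependent kinases CAMKK1 and CAMKK2. In KO1 against WT 2 were higher and 4 lower, and in KO2 4 were higher and 2 lower (medians of the log2 change -0.01 and 0.04, against 0 and 0.003 over all genes). These are 40.0% of the list in either clone, beside 39.8% of all genes in KO1 and 28.9% in KO2. CAMKK1 was at 570 and 482 in WT, 188 and 183 in KO1 and 170 and 187 in KO2, without overlap, with log2 changes of -1.50 ± 0.16 and -1.55 ± 0.16 (limma adjusted p = 2.38e-06 and 2.66e-06). CAMKK1 was also below WT in WT with eGFP, at 322 and 290, though above both KO clones. FNIP1, a folliculin partner that binds AMPK, was at 222 and 228 in WT, 403 and 300 in KO1 and 587 and 442 in KO2 (log2 changes 0.63 and 1.18, limma adjusted p = 0.0219 and 0.000368). FNIP1 was also higher in WT with eGFP, at 550 and 461, than in WT (log2 change 1.16, limma adjusted p = 0.000541). Neither shift from WT was thus seen only in the KO clones. MAP3K7, a kinase of TGF-β and cytokine signalling, was higher in both clones by 0.57 and 0.73 (adjusted p = 0.0077 and 0.00199). SESN3, a stress-induced sestrin, was at 27.5 to 136 in the rescue clones and 198 to 557 in the KO clones, a log2 change of -2.40 ± 0.15 (limma adjusted p = 4.54e-09) with serum, transduction and selection differing. SESN3 was also lower in WT with eGFP, at 122 and 86.0, than in WT, at 330 and 366 (log2 change -1.75, limma adjusted p = 1.82e-05). It was among 2 genes that were higher and 4 that were lower between rescue and KO, 40.0% of the list beside 45.7% of all genes. Between KO2_Rescue and KO2, CAMKK1 was the 1 gene of the list that passed, at 273 and 304 against 170 and 187 (log2 change 0.69, limma adjusted p = 0.0109). In WT with TGF-β 2 were higher (CAMKK1 at 859 and 817, and MAP3K7) and 1 lower (CAB39, a partner of STK11, at 15.6 and 16.7 against 47.7 and 257 in WT). These are 20.0% of the list beside 17.7% of all genes. With eGFP against WT 2 were higher and 6 lower, 53.3% of the list beside 26.6% of all genes.

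All 20 listed substrates of AMPK were tested, and 3 were higher and 6 lower in KO1 against WT, 2 and 3 in KO2, 5 and 4 between rescue and KO, and 1 and 2 between KO2_Rescue and KO2. These are 9, 5, 9 and 3 of 20, shares near the 39.8%, 28.9%, 45.7% and 10.3% of all genes that passed. ACACA, the acetyl-CoA carboxylase of fatty acid synthesis, was at 1344 and 2100 in WT, 540 and 75.8 in KO1, 930 and 866 in KO2 and 2187 to 2524 in the rescue clones. It passed in KO1 (log2 change -3.04 ± 0.55, limma adjusted p = 0.000424) though the 2 KO1 libraries lay far apart. TSC2, an inhibitor of mTORC1 signalling, was at 852 and 1075 in WT and higher in KO1 (1970 and 2284) and KO2 (1756 and 1719), by 1.15 and 0.86 on the log2 scale (limma adjusted p = 0.00247 and 0.021). PFKFB3, an activator of glycolysis, was at 5640 and 4507 in KO1 against 1503 and 1372 in WT (log2 change 1.81 ± 0.20, limma adjusted p = 4.22e-06). In KO2 PFKFB3 was at 2067 and 1751, which did not pass against WT, and KO1 exceeded KO2 by 1.41 on the log2 scale (limma adjusted p = 0.000246). TBC1D4, which governs glucose transporter traffic, was at 58.7 and 111 in KO1 and at 604 to 864 in the rescue clones, against 352 and 481 in WT. In KO2 TBC1D4 was at 208 and 379, which did not pass against WT, and KO1 was below KO2 (log2 difference -1.78, limma adjusted p = 0.00108). HDAC5 was the 1 substrate that was higher with TGF-β (684 and 710 against 367 and 261) and none was lower, 5.0% of the list beside 17.7% of all genes. With eGFP against WT 1 was higher and 3 were lower, 20.0% of the list beside 26.6% of all genes.

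Of 14 AMPK-related kinases 12 were tested, and 6 were higher and 2 lower in KO1, 4 and 3 in KO2, 4 and 3 between rescue and KO, and 2 and 1 between KO2_Rescue and KO2. These are 8, 7, 7 and 3 of 12, beside those same 39.8%, 28.9%, 45.7% and 10.3% of all genes. MARK1, a kinase of microtubule-associated proteins, was at most at 1.35 in WT and in all transduced WT libraries, and it was at 101 to 193 in the KO clones, 275 and 186 in KO2_Rescue and 49.8 to 162 in the rescue clones. It was thus high in every library derived from a KO clone, at 3.55 and 13.3 with TGF-β, and higher in the rescue clones than with eGFP (limma adjusted p = 1.26e-06). MELK, a kinase of proliferating cells, was at 853 and 1327 in WT, 108 and 123 in KO1, 287 and 301 in KO2 and 675 to 1038 in the rescue clones (log2 changes of -3.20 in KO1, -1.85 in KO2 and 2.23 between rescue and KO, limma adjusted p = 1.89e-06, 0.000533 and 1.68e-06). Serum, transduction and selection differ between rescue and KO. Below WT were also WT with TGF-β, where MELK was at 223 and 409, and WT with eGFP, at 455 and 452 (log2 changes -1.81 and -1.23). SIK1, a salt-inducible kinase, was at 2534 and 2196 with TGF-β and 2087 and 2274 in KO1 against 1052 and 698 in WT (log2 change 1.35 ± 0.18 in KO1, limma adjusted p = 2.88e-05). In KO2 SIK1 was at 1302 and 1540, and KO1 exceeded KO2 by 0.62 on the log2 scale (limma adjusted p = 0.0311). With TGF-β 3 of these kinases were higher and 2 lower, 41.7% of those tested beside 17.7% of all genes. None of the genes of these 3 lists passed with SOX2, OCT2 or PRRX1 against eGFP in limma's test, where 0.0206%, 0.0411% and 0.0480% of all genes did. At an unadjusted p under 0.05 the counts were 1, 0 and 1 of the 15 regulators, 2, 2 and 0 of the 20 substrates and 0 of the 12 kinases with each factor. POU2F2 itself did not pass with OCT2, so these missing calls do not show that the genes were unchanged.

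**Figure D5:**
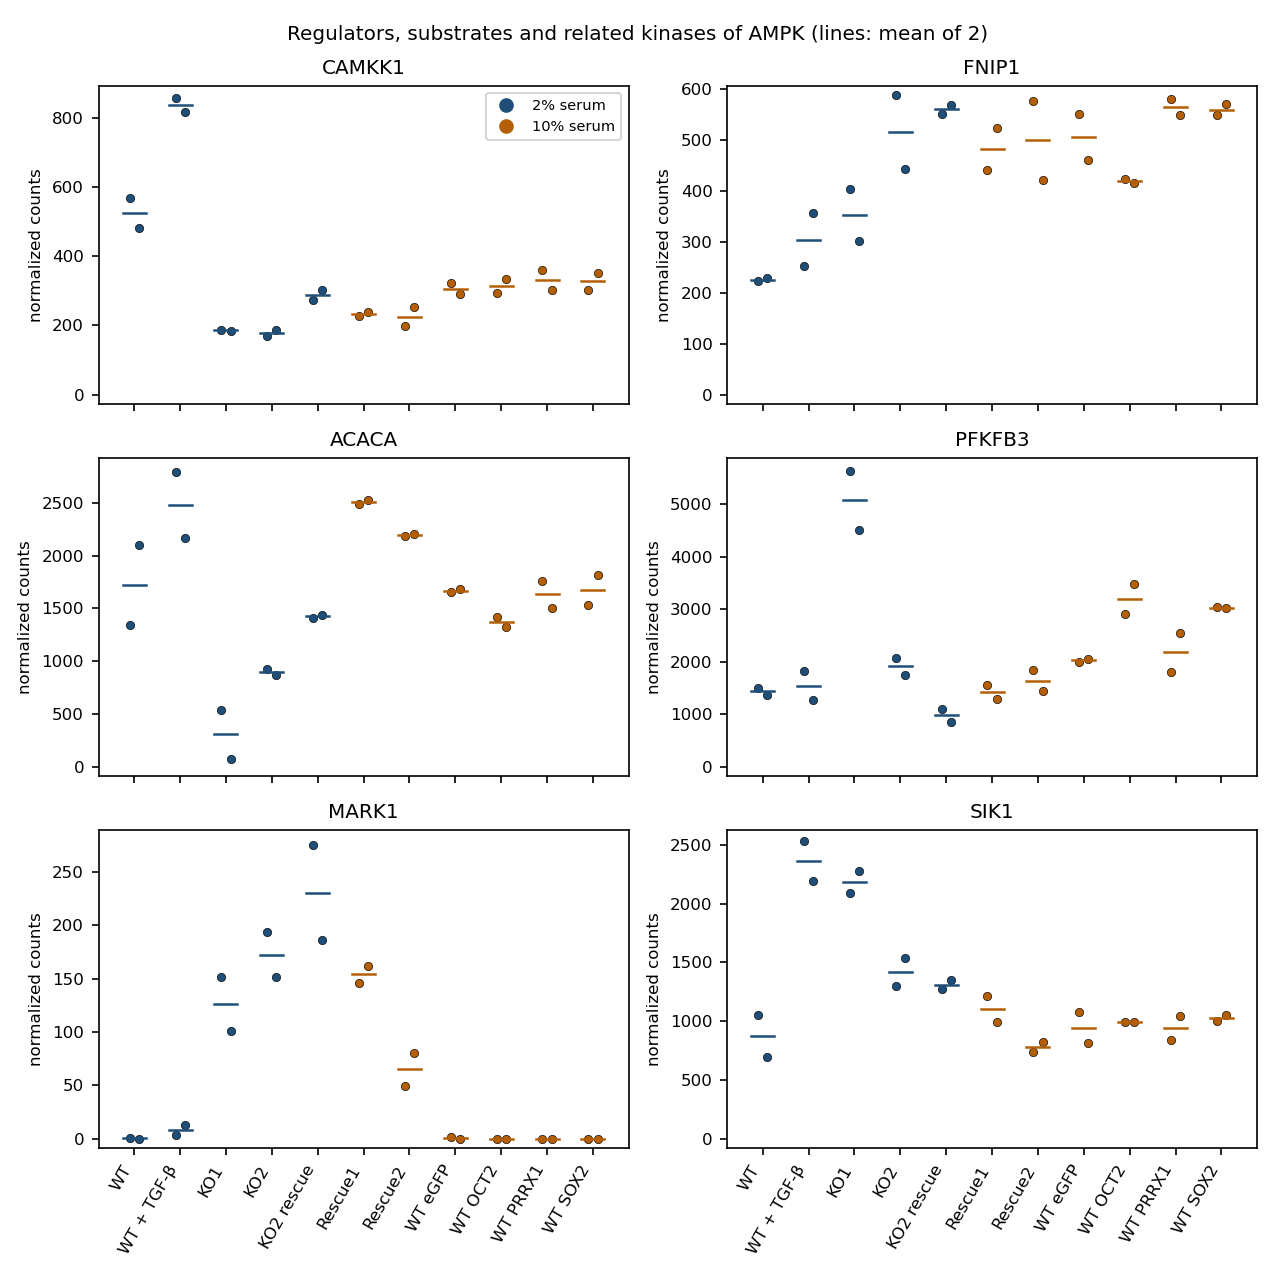
Normalized counts (y axis) of 2 regulators, 2 substrates and 2 related kinases of AMPK in 11 groups (x axis), with 1 point per library, blue in 2% and orange in 10% serum, and a line at the mean of 2. CAMKK1 is below 190 in the 4 KO libraries and at 482 or more in WT, and MARK1 is above 49 in every library derived from a KO clone.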

How the data were processed

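RNA-seq of 22 RPTEC libraries (stranded mRNA, paired reads) was used. Per the labels and methods, the authors ran Salmon 1.9.0 against cDNA of Ensembl release 94 (GRCh38) and DESeq2 1.26.0, and deposited 1 table of log2 values for 36859 genes. Its values have the form of a variance-stabilizing transformation, which the sources used here do not name. All libraries share 11.32 as lowest value, and the highest is 21.28. They were inverted to normalized counts, and read numbers were approximated from their steps; at this depth and with 2 libraries a group, genes of few counts were measured with wide errors, as given by the SE. Fold changes are on the log2(normalized count + 1) scale, which understates changes of low genes.

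Labels of the libraries gave the groups. In supplementary columns the names KO1 and KO2 appear exchanged, and the labels of the libraries were kept. Symbols and lengths came from GENCODE release 44, and promoter windows from RefSeq. The test was limma 3.58.1 (R 4.3.3) with a variance trend on log2(normalized count + 1), all 22 libraries in 1 fit without covariates, for the 14585 genes that reached 10 normalized counts in 2 libraries or more, with Benjamini-Hochberg adjustment over all genes of a comparison. On simulated data for 14585 genes, 200 of 200 genes given a log2 change of 2 between KO1 and WT were recovered and 17 unchanged genes were called. Smaller changes were not simulated. The members and gene lists were chosen with earlier results of these data known. Named genes were all subunits, SETD2 and the transduced factors, the 5 genes most correlated with PRKAA2, its 3 nearest tested neighbours on each side, and from each list up to 3 genes per direction with the largest change among those that passed; markers and housekeeping genes are named as checks. Some genes that this rule selects are not reported here. Housekeeping genes were chosen after the data were seen. Tried as alternatives were quantile normalization, pseudocounts of 0.5 and 5, a filter on a mean of 50 and none, equal library totals, the deposited log2 values, only the libraries compared, a replicate block, a fold threshold, other transcript lengths and each library left out. Python 3.11.15, numpy 2.4.6, pandas 2.3.3 and matplotlib 3.10.9 were used.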

Additional observations from a re-analysis of the deposited data

Results flagged for a closer look

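PRKAG2 differed between the SETD2 knockout clones in its change from WT. KO1 exceeded KO2 by 0.424 on the log2 scale, the value that both the contrast of the clones and the difference of their changes from the same WT libraries give (limma adjusted p = 0.0113), and both KO1 libraries (1639 and 1917 normalized counts) lay above both KO2 libraries (1326 and 1316). The call was lost without KO1 replicate 2 (0.31, adjusted p = 0.107), KO2 replicate 1 (0.43, adjusted p = 0.0517) and KO2 replicate 2 (0.42, adjusted p = 0.0679), with the same total for every library (0.24, adjusted p = 0.119) and in a fit of the compared libraries alone (adjusted p = 0.144). Groups of 2 libraries allow no check for single outlying libraries.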

How the results depend on the processing

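Of 11 single changes that passed, 170 repeats under the alternatives gave the same call in 141 and a lost call in 29, none with the opposite sign, and of 549 repeats of 39 changes that did not pass, 7 passed and 25 had the opposite sign. The higher PRKAG2 of both KO clones and of WT with eGFP passed under every alternative except a log2 threshold of 1 in KO2. With that threshold 1 subunit gene passed in KO1, 0 in KO2, 0 between the clones, 0 between rescue and KO and 1 in WT with eGFP. In a fit of the compared libraries alone 1 passed in KO1 against WT and 0 between the clones; the cause was not tested. With each library left out in turn the counts were 1 to 2 in KO2 against WT, 0 to 1 between the clones, 2 to 4 between rescue and KO and 0 to 1 between KO2_Rescue and KO2, where PRKAB1 passed without KO2_Rescue replicate 1 (log2 difference -1.45, limma adjusted p = 0.0305). PRKAA2 is left out of these counts, as no test of it is read.

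Replicate numbers did not pair the libraries, as deviations of same-numbered libraries correlated at -0.082 to 0.047 over all pairs of groups. With a replicate block 2 subunit genes passed in KO1 against WT and 2 in KO2, PRKAG2 changed by 1.10 and 0.68, and no call of a subunit gene changed.

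The same total for every library moved the median log2 change of all genes by -0.20 with TGF-β, -0.40 in KO1, -0.21 in KO2, -0.18 between the clones and 0.38 between rescue and KO. Under it the sign turned for PRKAB2 in KO1 (-0.26), PRKAA1 between the clones (-0.064), PRKAG1 between rescue and WT with eGFP (0.073) and PRKAG2 between KO2_Rescue and KO2 (0.046). With quantile normalization PRKAG2 turned to 0.013 between KO2_Rescue and KO2 and to 0.013 with SOX2. None of these had passed. Among changes that had passed, it raised those of PRKAA1 (1.08), PRKAG1 (0.61) and PRKAG2 (0.63) between rescue and KO. PRKAG2 with TGF-β was at -0.82 with the same total and at -0.14 on the deposited scale, on which every difference is compressed by its construction.

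With libraries left out, signs turned only for changes that had not passed. The ranges were -0.214 to 0.049 (KO1 against WT), -0.013 to 0.25 (between the clones) and -0.158 to 0.073 (PRRX1 against eGFP) for PRKAA1. For PRKAB2 they were -0.67 to 0.93 (KO1), -0.27 to 1.33 (KO2), -0.15 to 1.16 (rescue against eGFP), -0.18 to 1.14 (SOX2), -0.74 to 0.58 (OCT2) and -0.43 to 0.88 (PRRX1). For PRKAG1 they were -0.14 to 0.062 (rescue against eGFP), -0.162 to 0.041 (eGFP against WT), -0.054 to 0.149 (SOX2) and -0.073 to 0.13 (PRRX1), and for PRKAG2 -0.079 to 0.037 (KO2_Rescue) and -0.068 to 0.034 (SOX2).

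With the median transcript length the γ2 share was 13.2% in WT, 10.4% with TGF-β, 29.6% in KO1, 22.7% in KO2, 24.8% in KO2_Rescue, 25.8% in Rescue1, 26.7% in Rescue2, 28.2% with eGFP, 29.8% with OCT2, 28.7% with PRRX1 and 27.3% with SOX2, and the α2 share with TGF-β was 4.01%. Depth and the spread between 2 libraries limit what PRKAB1, PRKAB2 and PRKAA2 can show.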
